A study of Mus musculus with 6 samples.

Results

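Sox2 and 8 further genes of the SOX group were followed in fibroblasts grown in culture from mouse colon, cells that lay down the connective tissue of the gut wall. They were taken by gene symbol from a table of 16874 genes: Sox2, its overlapping noncoding transcript Sox2ot, Sox4, Sox5, Sox6, Sox9, Sox11, Sox12 and Sox13. All 9 had a row, and all 9 are described. RNA sequencing covered 3 libraries labelled Prkcz-/- and 3 labelled WT. Both groups came from C57BL/6 mice aged 12 weeks, were left untreated and were harvested 24 h after plating. Prkcz encodes protein kinase C zeta, an atypical protein kinase C. The series' design text also mentions a control guide, a Sox2 guide and more replicates, but the labels of these 6 libraries name no guide. Whether replicate libraries stem from different animals or culture dishes is not stated, so the p-values reflect only how these libraries vary, which may be technical.

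Prkcz itself went against the labels. It measured 1.35, 1.32 and 1.17 FPKM (fragments scaled to gene length and library size) in the libraries labelled Prkcz-/-, against 0.0433, 0.144 and 0.202 FPKM in those labelled WT. FPKM covers the gene as a whole and cannot tell whether exons removed from it were sequenced. Directions are therefore given for the libraries as labelled. Relative to WT library 3, depth was 90.5% to 102.7% for the libraries labelled Prkcz-/- and 90.4% to 100% for the WT libraries, as read from the steps of low FPKM values. The 12 listed fibroblast genes summed to 8675 to 8967 FPKM in the libraries labelled Prkcz-/- and to 6226 to 6582 FPKM in those labelled WT, mostly through collagens, Vim and Fn1. Not all were abundant: Lum, a matrix proteoglycan gene, measured 0.0665, 0.0587 and 0.151 FPKM in the libraries labelled Prkcz-/-, against 3.07, 4.07 and 3.04 FPKM in those labelled WT. Dcn, another proteoglycan gene, averaged 5.34 ± 0.892 FPKM in the libraries labelled Prkcz-/- and 49.07 ± 2.48 FPKM in those labelled WT (SD, n = 3 each).

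SOX proteins are transcription factors that bind the minor groove of DNA through an HMG box and bend it, usually together with a partner factor. SOX2, of the SOXB1 group, keeps pluripotent and neural progenitor cells undifferentiated and marks foregut rather than hindgut endoderm. SOX4, SOX11 and SOX12 form the SOXC group of embryonic mesenchyme and neurons. SOX5, SOX6 and SOX13, the SOXD group, have no activation domain of their own. SOX9, of the SOXE group, drives cartilage formation and is made in the colon by epithelial stem cells. Sox2ot is a long noncoding RNA whose gene encloses Sox2.

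RefSeq promoter windows (GRCm38.p6, 250 bases before to 50 after the annotated start) were available for 7 of the 9 members. The 4 below are shown because Sox2 had the widest difference between the groups and the SOXC genes, chiefly Sox4, made up most of the summed SOX level in both. They lie at chr3:34649745-34650044 (plus strand, Sox2), chr13:28953650-28953949 (minus strand, Sox4), chr12:27342669-27342968 (minus strand, Sox11) and chr2:152397997-152398296 (minus strand, Sox12). Capitals mark the SOX and TCF core ACAAAG, the shorter SOX core ACAAT and the CCAAT box, each searched on both strands and none sharing bases with another in these windows. CCAAT was marked after it had been seen in all 4.
Sox2: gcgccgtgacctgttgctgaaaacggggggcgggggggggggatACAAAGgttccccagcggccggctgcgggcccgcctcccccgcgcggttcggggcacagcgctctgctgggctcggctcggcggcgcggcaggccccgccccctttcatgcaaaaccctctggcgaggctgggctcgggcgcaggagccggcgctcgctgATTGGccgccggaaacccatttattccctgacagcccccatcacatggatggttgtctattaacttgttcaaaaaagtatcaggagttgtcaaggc
Sox4: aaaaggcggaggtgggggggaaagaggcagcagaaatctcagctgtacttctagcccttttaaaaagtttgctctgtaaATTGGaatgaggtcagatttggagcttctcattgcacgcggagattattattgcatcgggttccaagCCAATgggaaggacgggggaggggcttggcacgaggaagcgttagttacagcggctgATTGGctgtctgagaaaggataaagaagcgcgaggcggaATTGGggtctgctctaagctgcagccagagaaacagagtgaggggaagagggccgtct
Sox11: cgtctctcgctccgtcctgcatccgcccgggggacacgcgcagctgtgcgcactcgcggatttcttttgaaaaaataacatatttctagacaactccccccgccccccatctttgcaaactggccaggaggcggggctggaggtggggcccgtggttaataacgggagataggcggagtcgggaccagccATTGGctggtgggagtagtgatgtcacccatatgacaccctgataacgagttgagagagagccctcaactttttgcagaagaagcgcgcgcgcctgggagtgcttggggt
Sox12: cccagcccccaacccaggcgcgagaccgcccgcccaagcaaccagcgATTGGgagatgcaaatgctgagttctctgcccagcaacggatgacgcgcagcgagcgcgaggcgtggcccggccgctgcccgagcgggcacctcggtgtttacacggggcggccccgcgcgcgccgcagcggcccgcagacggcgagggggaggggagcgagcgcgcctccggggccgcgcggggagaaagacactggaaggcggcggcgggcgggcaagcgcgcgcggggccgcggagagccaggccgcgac
The Sox2 window held ACAAAG at bases 45 to 50 and was 66.3% G and C. Of 32851 promoter windows of the same length, 18.7% hold ACAAAG. None of the 4 windows held ACAAT, which is in 31.0% of all windows. Each of the 4 windows held a CCAAT box, as 37.4% of all windows do, with 4 of them in Sox4. The octamer ATGCAAAT, a motif of POU factors, was at bases 56 to 63 of the Sox12 window and is in 1.74% of all windows. It was searched after the Sox12 sequence had been seen. These are matches of letters, not shown binding sites. Starts here are those of RefSeq, and the Sox2 and Sox11 windows lie wholly before the GENCODE M21 gene starts given below.

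Sox2 was high in the libraries labelled Prkcz-/- and low in those labelled WT. It measured 20.2, 21.2 and 21.3 FPKM in the libraries labelled Prkcz-/-, against 0.475, 0.0831 and 0.851 FPKM in WT libraries 1 to 3. The groups did not overlap, and the lowest of the 3 high values stood far above the highest of the low ones. On the log2(FPKM + 0.5) scale the difference was 4.54 (SE 0.262, limma adjusted p = 2.46e-06), the 24th highest of 12130 genes tested. Its size depended on the pseudocount, at 5.50 with 0.1 FPKM added and 3.93 with 1 FPKM added. In bulk RNA, fewer cells that make a transcript and less of it per cell cannot be told apart. The study's title names Sox2, so its direction is not independent evidence.

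**Figure D1:**
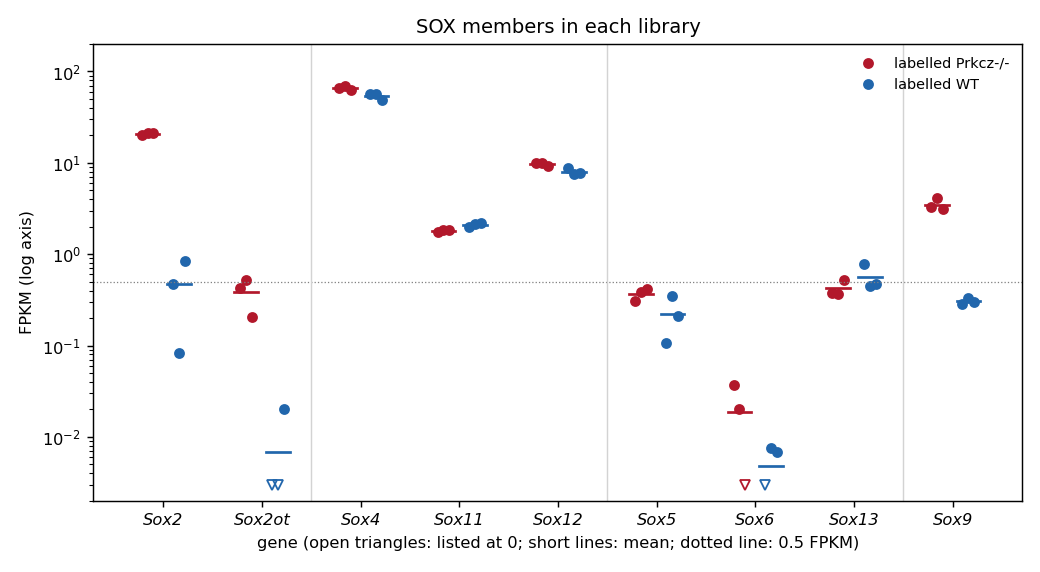
FPKM (log axis) of the 9 members in each of the 3 libraries labelled Prkcz-/- (red, left) and the 3 labelled WT (blue, right), with short lines at the means and open triangles for values listed at 0. Sox2, Sox2ot and Sox9 stand clear of WT, while Sox4, Sox11 and Sox12 lie close to their WT levels.

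Most low genes step in whole reads, and the reads behind the values could be recovered for Sox2, Sox2ot, Sox9 and Sox13. For Sox5 and Sox6, also low, they could not. The Sox2 values of the libraries labelled Prkcz-/- correspond to 730, 870 and 846 reads, and those of WT libraries 1 to 3 to 19, 3 and 34 reads. The exact Poisson 95% interval of WT library 2 (0.619 to 8.77 reads) lay below those of WT library 1 (11.4 to 29.7) and WT library 3 (23.5 to 47.5). The 3 WT libraries thus differed from each other in Sox2 by more than counting error, at nearly equal depth. Their SD was 0.384 FPKM around a mean of 0.470 FPKM, against an SD of 0.611 FPKM around a mean of 20.9 FPKM in the libraries labelled Prkcz-/- (n = 3 each). Leaving out WT library 2 gave a log2 difference of 4.22 (limma adjusted p = 2.91e-06), and leaving out WT library 3 gave 4.83 (limma adjusted p = 4.68e-06).

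Sox9, at a like number of WT reads, was even across the WT libraries. The gene lies at chr11:112782224-112787760 on the plus strand (GENCODE M21, GRCm38). It had 210, 293 and 215 reads in the libraries labelled Prkcz-/-, against 20, 21 and 21 reads in WT libraries 1 to 3. In FPKM these were 3.32, 4.08 and 3.09 in the libraries labelled Prkcz-/- and 0.286, 0.332 and 0.300 in those labelled WT. Every library labelled Prkcz-/- was above every WT library. The log2 difference was 2.30 (SE 0.122, limma adjusted p = 1.58e-06), the 255th highest of the genes tested, or 3.14 with 0.1 FPKM added and 1.78 with 1 FPKM added. As a ratio of read rates Sox9 was 11.5 times as high in the libraries labelled Prkcz-/- (exact 95% interval 8.85 to 15.1, which covers counting error only).

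**Figure D2:**
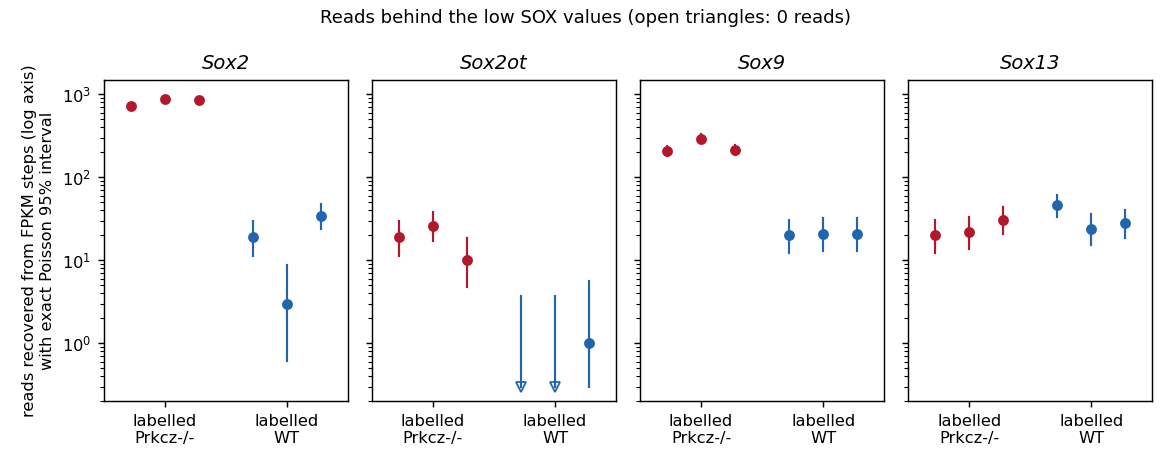
Reads recovered from the steps of FPKM values (log axis) for Sox2, Sox2ot, Sox9 and Sox13 in each library, with exact Poisson 95% intervals; open triangles mark 0 reads. The WT libraries differ in Sox2 (19, 3 and 34 reads) but not in Sox9 (20, 21 and 21 reads).

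Sox2ot, which shares its strand and its locus with Sox2, had nearly all of its reads in the libraries labelled Prkcz-/-. It measured 0.428, 0.516 and 0.205 FPKM there, against values listed at 0, at 0 and at 0.0204 FPKM in WT libraries 1 to 3. These stand for 19, 26 and 10 reads in the libraries labelled Prkcz-/- and 0, 0 and 1 in the WT libraries. The lone WT read was in WT library 3. Its exact Poisson 95% interval (0.0253 to 5.57 reads) overlapped that of 0 reads (0 to 3.69), so the WT libraries could not be told apart in Sox2ot. The ratio of read rates was 54.55 (exact 95% interval 9.39 to 2193, counting error only). Its mean was under the filter of 0.5 FPKM over the 6 libraries, so it had no test in the fit. With no filter on low values its log2 difference was 0.78 (limma adjusted p = 0.00309). The 0.5 FPKM added before taking logs is above every Sox2ot value except 0.516 FPKM. That difference is therefore small beside the ratio of read rates. In GENCODE M21 on GRCm38, Sox2ot spans chr3:34104270-34682619 and Sox2 chr3:34650405-34652461, both on the plus strand. Reads could be shared where their exons meet, so the Sox2ot value is uncertain.

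Apart from Sox2ot, the tested genes around Sox2 differed far less. The 10 nearest genes of the table, 5 on each side by annotated start, began between -850.6 and 1416 kb from the Sox2 start, and 8 of them were tested. Sox2ot is among the 10 and, like Mccc1os, was under the filter. Of these 8, 0 were higher and 4 lower, where 31.5% and 37.2% of all tested genes were, with log2 differences between -0.31 and 0.25. Dnajc19, which encodes a protein of the mitochondrial import machinery, was lower, at 17.7, 17.7 and 20.8 FPKM in the libraries labelled Prkcz-/- and 23.1, 22.6 and 24.1 FPKM in those labelled WT (log2 difference -0.31, limma adjusted p = 0.00372). Fxr1, which encodes an RNA-binding relative of FMRP, averaged 88.0 ± 3.31 FPKM in the libraries labelled Prkcz-/- and 92.5 ± 2.45 FPKM in those labelled WT (SD, n = 3 each; limma adjusted p = 0.135). Atp11b, a phospholipid flippase gene on the other side, averaged 20.3 ± 1.06 FPKM in the libraries labelled Prkcz-/- and 18.8 ± 0.467 FPKM in those labelled WT (SD, n = 3 each; limma adjusted p = 0.0947).

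**Figure D3:**
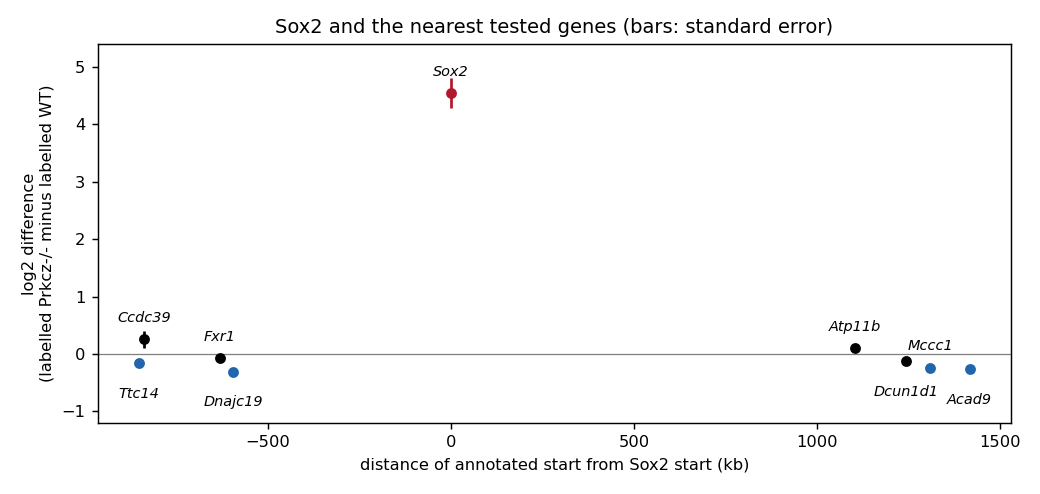
Log2 difference (labelled Prkcz-/- minus labelled WT, log2(FPKM + 0.5), bars: SE) of Sox2 and the 8 tested neighbours against the distance of their annotated start from that of Sox2, in kb. Red is higher, blue lower and black not called; the neighbours lie between -0.31 and 0.25, and Sox2 at 4.54.

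Sox4 was the most abundant SOX transcript in both groups, and the SOXC genes differed far less between the groups than Sox2 or Sox9. All 3 lie on minus strands, at chr13:28948919-28953713 (Sox4), chr2:152393611-152398063 (Sox12) and chr12:27334264-27342574 (Sox11). Sox4, which in mesenchyme and neurons supports cell survival, measured 65.9, 69.8 and 62.7 FPKM in the libraries labelled Prkcz-/-, against 57.1, 56.3 and 49.0 FPKM in those labelled WT. Sox12, the weakest activator of the group, measured 9.89, 9.87 and 9.25 FPKM in the libraries labelled Prkcz-/-, against 8.67, 7.62 and 7.77 FPKM in those labelled WT. For both, the lowest library labelled Prkcz-/- was above the highest WT library. The log2 difference was 0.29 for Sox4 (SE 0.0659, limma adjusted p = 0.00505) and 0.26 for Sox12 (SE 0.0645, limma adjusted p = 0.00804). Sox11, the strongest activator of the group, pointed the other way, at 1.77, 1.84 and 1.85 FPKM in the libraries labelled Prkcz-/- and 1.96, 2.13 and 2.22 FPKM in those labelled WT. The Sox11 groups did not overlap, but the log2 difference of -0.17 did not pass the test (SE 0.0874, limma adjusted p = 0.124). It passed with quantile normalization (log2 difference -0.41, limma adjusted p = 0.00338) and with no variance trend (limma adjusted p = 0.0251).

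The SOXD genes were low in every library. They too lie on minus strands, at chr1:133382303-133424377 (Sox13), chr6:143828425-144781977 (Sox5) and chr7:115470872-116038796 (Sox6). Sox13 measured 0.374, 0.363 and 0.528 FPKM in the libraries labelled Prkcz-/-, against 0.779, 0.450 and 0.474 FPKM in those labelled WT, or 20, 22 and 31 reads against 46, 24 and 28 reads. Sox5 measured 0.308, 0.383 and 0.420 FPKM in the libraries labelled Prkcz-/-, against 0.107, 0.348 and 0.213 FPKM in those labelled WT. Sox6 was under 0.04 FPKM in all 6 libraries and listed at 0 in library 3 labelled Prkcz-/- and in WT library 1. For each of the 3 SOXD genes the groups overlapped, and none reached the mean of 0.5 FPKM needed for the fit. With no filter on low values the limma adjusted p was 0.276 for Sox13, 0.119 for Sox5 and 0.447 for Sox6. Summed over the 3 SOXD genes, the level was 0.811 ± 0.121 FPKM in the libraries labelled Prkcz-/- and 0.796 ± 0.0962 FPKM in those labelled WT (SD, n = 3 each).

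Of the 9 members 5 were tested, and in the libraries labelled Prkcz-/- 4 were higher and 0 lower. Sox2ot, Sox5, Sox6 and Sox13 were the 4 under the filter, and Sox2 and Sox9 reached it only through the libraries labelled Prkcz-/-, so the count and median are a description. Over all 12130 genes tested, 31.5% were higher and 37.2% lower by the same rule, or 68.7% in all. That balance depended on scaling: 3825 genes were higher and 4511 lower as deposited, but 4427 were higher and 3658 lower after short RNA genes were taken out of the total. The median log2 difference was 0.29 over the 5 tested members and -0.04 over all genes tested. The groups did not overlap for 5 members that were higher (Sox2, Sox2ot, Sox9, Sox4 and Sox12) and 1 that was lower (Sox11), where 33.3% of all tested genes were higher without overlap and 39.4% lower (72.7% in all). The exact two-sided permutation test gave p = 0.1 for those 6 members, the smallest that 3 libraries against 3 can give.

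**Figure D4:**
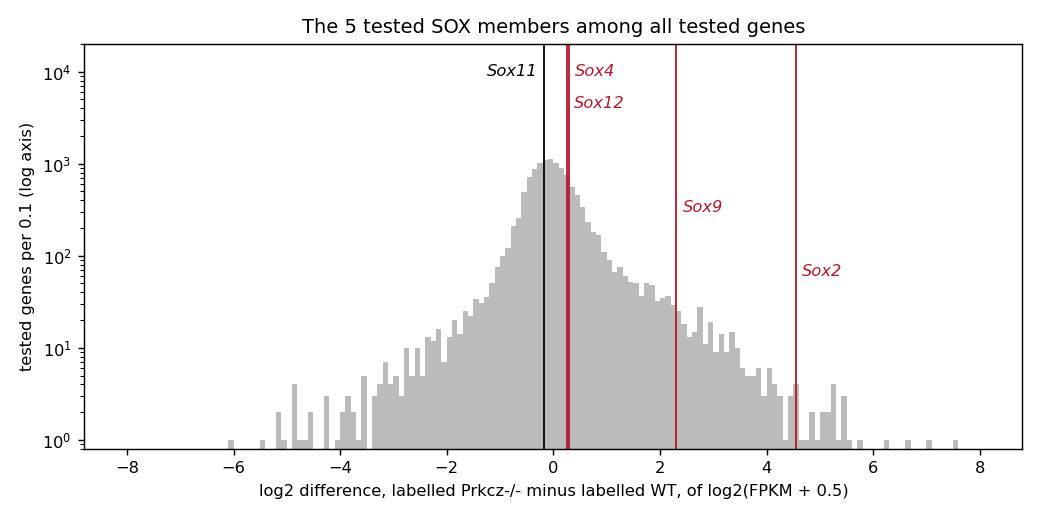
Number of tested genes (log axis) by log2 difference, labelled Prkcz-/- minus labelled WT, with lines at the 5 tested members. Sox2 (4.54) and Sox9 (2.30) lie in the upper tail, and Sox4 (0.29), Sox12 (0.26) and Sox11 (-0.17) near the middle.

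FPKM is per length, so levels can be compared between the genes. In the libraries labelled Prkcz-/- the order was Sox4, Sox2, Sox12, Sox9, Sox11, and then Sox13, Sox2ot and Sox5, whose ranges overlapped, with Sox6 last. In the WT libraries it was Sox4, Sox12, Sox11, and then Sox13, Sox2, Sox9 and Sox5 with overlapping neighbours, followed by Sox2ot and Sox6. Sox2 thus stood second in the libraries labelled Prkcz-/- and was not separable from Sox13 or Sox9 in WT. The 8 coding members summed to 102.8 ± 4.32 FPKM in the libraries labelled Prkcz-/- and 65.8 ± 4.44 FPKM in those labelled WT (SD, n = 3 each). Sox2 made up 20.3% ± 0.980 of that sum in the libraries labelled Prkcz-/- and 0.736% ± 0.639 in those labelled WT. The SOXC genes made up 75.5% ± 0.912 in the libraries labelled Prkcz-/- and 97.6% ± 0.609 in those labelled WT (SD, n = 3 each). Their summed level was 77.6 ± 3.86 FPKM in the libraries labelled Prkcz-/- and 64.3 ± 4.63 FPKM in those labelled WT.

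**Figure D5:**
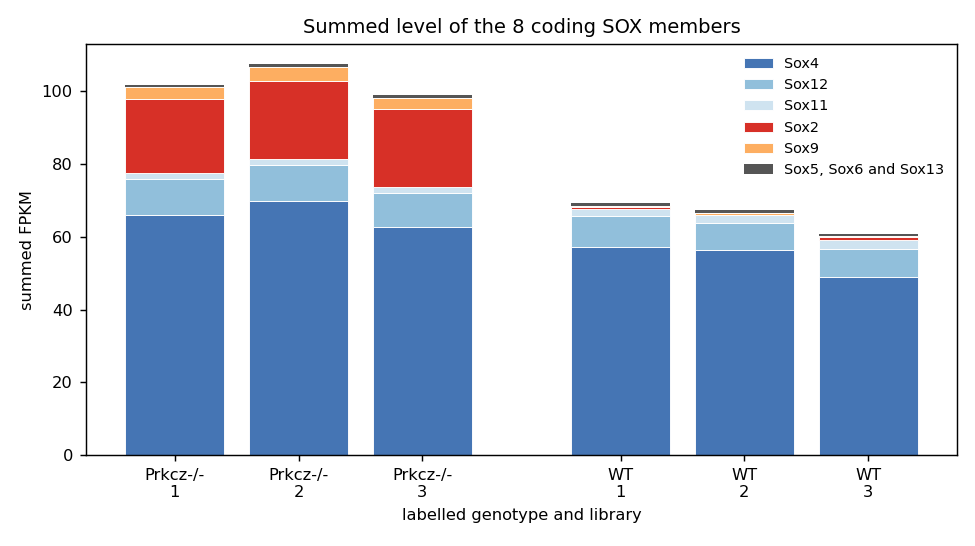
Summed FPKM of the 8 coding SOX members in each library, stacked by gene, for the 3 libraries labelled Prkcz-/- (left) and the 3 labelled WT (right). Sox4 is the largest part of every bar, and Sox2 makes up 20.3% of the sum on the left and 0.736% on the right.

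A further 7 SOX genes had a row, and Sry, Sox1, Sox3, Sox14 and Sox17 had none. None of the 7 was tested, and their means over the 6 libraries were 0.223 FPKM or less. Sox8, a SOXE gene like Sox9, had 16, 19 and 7 reads in the libraries labelled Prkcz-/- and 9, 10 and 3 reads in those labelled WT. Sox10, the SOXE gene of enteric glia, had 0, 0 and 2 reads in the libraries labelled Prkcz-/- and 0, 0 and 1 in those labelled WT. Sox18, an endothelial gene, had 2, 4 and 3 reads in the libraries labelled Prkcz-/- and 0, 2 and 0 in those labelled WT, and of the 7 it alone passed with no filter on low values (log2 difference 0.23, limma adjusted p = 0.0491). Sox7 and Sox15 had 5 reads or fewer in every library, as did Sox21 and Sox30, and the groups overlapped for all 7.

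Other cells of the colon wall that make SOX factors were checked by their markers. Enteric glia make SOX2 and SOX10. Of 12 glial genes 10 had a row and 4 were tested, with 1 higher (Entpd2) and 1 lower (Gap43), beside 31.5% and 37.2% of all genes tested. Entpd2 reached the filter only through the libraries labelled Prkcz-/-. The 10 glial genes with a row summed to 6.37 to 7.07 FPKM in the libraries labelled Prkcz-/- and 5.26 to 5.97 FPKM in those labelled WT. Among them Foxd3, a neural crest factor, had 1.00, 0.962 and 0.913 FPKM in the libraries labelled Prkcz-/-, against values listed at 0 in all 3 WT libraries, with a mean below the filter. Gfap reached at most 0.0743 FPKM in the libraries labelled Prkcz-/-, with all WT libraries listed at 0, and Sox10 had 2 reads or fewer in every library. Fabp7 and Gap43, the most abundant of the list over the 6 libraries together, measured 1.81 ± 0.476 and 1.22 ± 0.127 FPKM in the libraries labelled Prkcz-/- and 1.37 ± 0.462 and 2.47 ± 0.323 FPKM in those labelled WT (SD, n = 3 each). Entpd2, an ectonucleotidase gene, averaged 1.34 ± 0.280 FPKM in the libraries labelled Prkcz-/- and 0.298 ± 0.108 FPKM in those labelled WT (SD, n = 3 each). The part of these genes in the Sox2 difference was not tested.

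Of 10 genes of enteric neurons 8 had a row and 1, Uchl1, was tested. It was higher, at 20.4 ± 1.13 FPKM in the libraries labelled Prkcz-/- and 6.81 ± 0.372 FPKM in those labelled WT (SD, n = 3 each). It made up most of the list's sum, 19.96 to 22.0 FPKM in the libraries labelled Prkcz-/- and 6.88 to 7.68 FPKM in those labelled WT. Elavl4, the next most abundant over the 6 libraries together, was 0.0771 FPKM or less in the libraries labelled Prkcz-/- and 0.208 to 0.333 FPKM in those labelled WT. Colon epithelium makes SOX9. Of 14 epithelial genes 13 had a row and 1, Krt19, was tested and lower (limma adjusted p = 0.0318). The list summed to 2.19 to 2.68 FPKM in the libraries labelled Prkcz-/- and 1.73 to 2.63 FPKM in those labelled WT, with Cdh1 at 0.0522 FPKM or less in every library. Krt19 averaged 0.801 FPKM in the libraries labelled Prkcz-/- and 1.45 FPKM in those labelled WT, while Cldn7 averaged 0.932 FPKM in the libraries labelled Prkcz-/- and 0.0265 FPKM in those labelled WT. What these cells may add to the Sox9 level was not tested. Endothelial genes (9 of 12 with a row, none tested) summed to 1.40 FPKM or less, with Tek and Kdr highest over the 6 libraries together, at means of 0.278 and 0.264 FPKM in the libraries labelled Prkcz-/- and 0.553 and 0.197 FPKM in those labelled WT. Erg led in the libraries labelled Prkcz-/-, with a mean of 0.325 FPKM there and 0.111 FPKM in those labelled WT. Immune genes (9 of 12 with a row) had 2 tested, 0 higher and 1 lower, and summed to 3.001 to 4.68 FPKM in the libraries labelled Prkcz-/- and 3.30 to 4.39 FPKM in those labelled WT. Cd68 and Coro1a led that list. Of 8 genes of smooth muscle and interstitial cells of Cajal 6 were tested, with 3 higher (Acta2, Ano1 and Rgs5) and 1 lower. Ano1 and Rgs5 reached the filter only through the libraries labelled Prkcz-/-. Acta2 and Actg2, which cultured fibroblasts also make, were the most abundant over the 6 libraries together. Cnn1, however, was above Actg2 in the libraries labelled Prkcz-/-. Actg2 was the lower gene, at 52.9 ± 2.81 FPKM in the libraries labelled Prkcz-/- and 461 ± 16.3 FPKM in those labelled WT (SD, n = 3 each). Of the 12 fibroblast genes 8 were higher and 4 lower (Col1a2, Col3a1, Dcn and Lum). Col1a1 and Vim, both higher, were the most abundant. Beside the counts of all these lists, 31.5% of all genes tested were higher and 37.2% lower.

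The pluripotency network in which SOX2 acts was not seen as a whole. Of 25 listed genes 16 had a row and 11 were tested, with 5 higher and 4 lower (median log2 difference 0.23), beside 31.5% and 37.2% of all genes tested. Chd7 reached the filter only through the libraries labelled Prkcz-/- and Mycn only through those labelled WT. Pou5f1, the main partner of SOX2 in pluripotent cells, was listed at 0 in 5 of 6 libraries and measured 0.0790 FPKM in library 1 labelled Prkcz-/-. Nanog, another core factor of that network, was 0.503 FPKM or less in every library. Tbx3, a T-box repressor, was higher at 12.8 ± 0.222 FPKM in the libraries labelled Prkcz-/- and 2.61 ± 0.375 FPKM in those labelled WT (SD, n = 3 each; log2 difference 2.11, limma adjusted p = 5.50e-07). Klf4, which with SOX2 reprograms somatic cells, was higher at 20.9 ± 0.627 FPKM in the libraries labelled Prkcz-/- and 10.5 ± 0.895 FPKM in those labelled WT (SD, n = 3 each). Chd7, a chromatin remodeller that binds SOX2 in neural stem cells, was higher at 1.34, 1.46 and 1.51 FPKM in the libraries labelled Prkcz-/-, against 0.0660, 0.0787 and 0.0508 FPKM in those labelled WT. Mycn, a MYC family factor, was lower at 0.0260, 0.0459 and 0.0237 FPKM in the libraries labelled Prkcz-/-, against 4.10, 2.76 and 5.02 FPKM in those labelled WT (log2 difference -3.04, limma adjusted p = 3.86e-06).

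Among partners and targets of SOXB1 factors in neural progenitors 8 of 10 tested genes were higher and 1 lower (20 listed, 17 with a row, median log2 difference 0.64), beside 31.5% and 37.2% of all genes tested. Pou3f3 reached the filter only through the libraries labelled Prkcz-/-. Cdh2, which encodes N-cadherin, was higher at 75.6 ± 2.38 FPKM in the libraries labelled Prkcz-/- and 20.1 ± 0.334 FPKM in those labelled WT (SD, n = 3 each; log2 difference 1.88, limma adjusted p = 1.05e-08). Hes1, a repressor downstream of NOTCH, was higher at 33.2 ± 2.25 FPKM in the libraries labelled Prkcz-/- and 16.03 ± 0.907 FPKM in those labelled WT (SD, n = 3 each). Pou3f3, of the POU family whose members pair with SOX2 in neural cells, measured 1.42, 1.44 and 1.47 FPKM in the libraries labelled Prkcz-/-, against values listed at 0, at 0 and at 0.0197 FPKM in WT libraries 1 to 3. Nes, which encodes the progenitor filament nestin and has a SOX-bound enhancer, was the lower gene, at 36.8 ± 0.166 FPKM in the libraries labelled Prkcz-/- and 52.3 ± 1.46 FPKM in those labelled WT (SD, n = 3 each). Pax6, a partner of SOX2 in the lens, was under the filter, at 0.731, 1.00 and 1.00 FPKM in the libraries labelled Prkcz-/- and 0.0515, 0 and 0.0172 FPKM in those labelled WT.

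Of 30 listed genes of the cartilage programme of SOX9 and the SOXD factors, 29 had a row and 10 were tested. The list was not restricted to targets of these factors. Of the 10 tested, 8 were higher and 2 lower (median log2 difference 0.81), beside 31.5% higher and 37.2% lower over all genes tested. Col10a1, Bmp2 and Runx3 reached the filter only through the libraries labelled Prkcz-/-, so the count and median describe the tested genes and not the list. Col10a1, a collagen of hypertrophic cartilage, was higher at 8.06, 9.19 and 8.80 FPKM in the libraries labelled Prkcz-/-, against 0.250, 0.107 and 0.116 FPKM in those labelled WT (log2 difference 3.81, limma adjusted p = 7.11e-08). Col27a1, a fibrillar collagen of cartilage, was higher at 4.48 ± 0.335 FPKM in the libraries labelled Prkcz-/- and 0.582 ± 0.0696 FPKM in those labelled WT (SD, n = 3 each). Runx2, the bone and hypertrophic cartilage factor, was higher at 13.0 ± 0.495 FPKM in the libraries labelled Prkcz-/- and 5.52 ± 0.464 FPKM in those labelled WT (SD, n = 3 each). Bmp4 was lower at 2.74 ± 0.278 FPKM in the libraries labelled Prkcz-/- and 10.2 ± 1.27 FPKM in those labelled WT (SD, n = 3 each). Col2a1 and Acan, which are among the classical SOX9 targets of chondrocytes, were too low for the fit. Col2a1 measured 0.619, 0.309 and 0.563 FPKM in the libraries labelled Prkcz-/-, against 0.0239, 0.0396 and 0.203 FPKM in those labelled WT, and the groups did not overlap. Acan measured 0.0174, 0.0538 and 0.0554 FPKM in the libraries labelled Prkcz-/-, against values listed at 0 in all 3 WT libraries.

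For targets of the SOXC factors, 8 of 14 tested genes were higher and 4 lower (16 listed, 15 with a row, median log2 difference 0.70), beside 31.5% and 37.2% of all genes tested. Cdh2 is also in the SOXB1 list and is counted in both, and Stmn2, Plxna2 and Nefm reached the filter only through the libraries labelled Prkcz-/-. Stmn2, a microtubule protein gene of neurons, was higher at 3.95, 3.62 and 4.06 FPKM in the libraries labelled Prkcz-/-, and listed at 0 in all 3 WT libraries (limma adjusted p = 1.48e-07). Plxna2, a semaphorin receptor gene, was higher at 7.76 ± 0.654 FPKM in the libraries labelled Prkcz-/- and 0.358 ± 0.0347 FPKM in those labelled WT (SD, n = 3 each). Sema3a, a secreted repulsive ligand, was lower at 9.88 ± 0.667 FPKM in the libraries labelled Prkcz-/- and 96.5 ± 3.03 FPKM in those labelled WT (SD, n = 3 each; log2 difference -3.23, limma adjusted p = 5.08e-09). Tead2, a SOXC target in the mouse embryo, measured 52.3, 52.8 and 50.4 FPKM in the libraries labelled Prkcz-/- and 56.5, 53.0 and 53.5 FPKM in those labelled WT (limma adjusted p = 0.153).

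The TCF and LEF factors, which carry an HMG box like the SOX proteins, bind ACAAAG cores and mediate WNT signalling. Of 4 genes 3 were tested, with 2 higher and 0 lower, beside 31.5% and 37.2% of all genes tested. Tcf7l1 was higher at 23.8, 26.1 and 23.6 FPKM in the libraries labelled Prkcz-/-, against 12.4, 12.4 and 12.3 FPKM in those labelled WT (log2 difference 0.96, limma adjusted p = 1.44e-06). Tcf7 was higher at 3.45 ± 0.616 FPKM in the libraries labelled Prkcz-/- and 1.16 ± 0.164 FPKM in those labelled WT (SD, n = 3 each). Tcf7l2 averaged 9.16 ± 0.589 FPKM in the libraries labelled Prkcz-/- and 9.72 ± 0.280 FPKM in those labelled WT (SD, n = 3 each; limma adjusted p = 0.254), and Lef1 was 0.178 FPKM or less in every library. The secreted WNT antagonists of the study's title, Sfrp1 and Sfrp2, were also higher, with means for Sfrp1 of 138 FPKM in the libraries labelled Prkcz-/- and 0.219 FPKM in those labelled WT. Sfrp2 averaged 19.3 FPKM in the libraries labelled Prkcz-/- and 11.2 FPKM in those labelled WT.

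The genes whose pattern over the 6 libraries was most like that of Sox2 were ranked by their likeness to it. By Pearson's r of log2(FPKM + 0.5), given as a description, they included Wisp1 (r = 0.9999) and Sphk1, Dusp1 and Tagln2 (r = 0.999 each). Wisp1, which encodes a secreted CCN protein, measured 112.2, 112.4 and 111.2 FPKM in the libraries labelled Prkcz-/-, against 51.7, 45.1 and 55.9 FPKM in WT libraries 1 to 3. Sphk1, which encodes a sphingosine kinase, measured 9.46, 10.1 and 10.2 FPKM in the libraries labelled Prkcz-/-, against 2.04, 1.53 and 2.62 FPKM in WT libraries 1 to 3. In both, as in Sox2, WT library 2 was the lowest and WT library 3 the highest, an order that the choice by r over the same libraries favours. Of 12129 genes compared, 260 had r above 0.99 and 1954 above 0.95. Among the members, r to Sox2 was 0.98 for Sox9, 0.90 for Sox12, 0.81 for Sox4 and -0.85 for Sox11.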

How the data were processed

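RNA from 3 libraries labelled Prkcz-/- and 3 labelled WT was analysed. Per the labels' protocols, polyadenylated RNA went into directional libraries read from a single end. STAR, DESeq2 and mm10 appear in the submitters' processing notes. Counter, annotation and strand setting: not given in the sources used here. FPKM values of 16874 genes were deposited by the authors; whole reads were recovered only for low genes, so the test is on FPKM.

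The 12130 genes that averaged 0.5 FPKM or more were compared as log2(FPKM + 0.5) with limma 3.58.1 in R 4.3.3 (lmFit, eBayes with a variance trend; two-sided; Benjamini-Hochberg over all tested genes; threshold 0.05). The fit was tested on simulated data. The worth of 1 read in each library came from ratios of low FPKM values. Reads are the smallest whole numbers within 0.01 of all 6 values, with a smallest count of up to 50 tried for SOX genes. With a smallest count of up to 15, 74.8% of 1230 low genes stepped so. Poisson intervals cover counting error only. Positions are from GENCODE M21, promoters from RefSeq (GRCm38.p6).

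Members and lists were chosen with earlier results of these data known. Named genes are the members, other SOX rows, up to 4 tested genes per list by smallest p, the 2 most abundant per marker list, the 5 most like Sox2 (of which 1 is not reported here) and the 5 neighbours on each side. Lef1, Pou5f1, Nanog, Pax6, Foxd3, Gfap, Entpd2, Cdh1, Col2a1, Acan, Tead2, Lum and Dcn were named after their values were seen. So were Fn1, Erg, Cnn1, Csf1r, Bmp2, Runx3, Nefm, Ano1, Rgs5, Col1a2 and Col3a1.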

Additional observations from a re-analysis of the deposited data

How the results depend on the processing

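The 15 alternatives changed the pseudocount, the filter, the scaling and the variance model, added the replicate number as a block, or left out each library. Sox2, Sox4, Sox9 and Sox12 kept their direction and their call in all 15. The count of members lower in the libraries labelled Prkcz-/- was 1, not 0, with quantile normalization and with no variance trend, in both through Sox11; the cause was not tested. With no filter Sox2ot also passed, making 5 members higher, where 4356 of all 16874 genes were higher and 4528 lower. Over the fits leaving out 1 library, 4 members were higher and 0 lower in each, while genes called over the whole table ranged from 3497 to 3774 higher and from 4131 to 4300 lower. The replicate block gave 3718 higher and 4375 lower genes and 4 members higher. Same-numbered libraries did not pair, with correlations of deviations of 0.06, 0.015 and 0.008. Reads limit the low members: at 19, 3 and 34 Sox2 reads and 1 Sox2ot read in the WT libraries, folds are imprecise.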
